A study of Manihot esculenta with 44 samples.

Results

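The genes of chlorophyll synthesis and breakdown were followed in cassava leaves at a site where plants flowered and a site where they did not. Members were taken by their Arabidopsis best hit in the deposited annotation. The set held 23 Arabidopsis genes that encode enzymes of both routes or, for GUN4, an activator of magnesium chelatase. This gave 29 cassava genes, with 32 transcripts, out of 34120 genes in all. They matched 21 of the 23 Arabidopsis genes, and no cassava gene had GSA1 or PORB as its best hit. There were 22 synthesis genes, of which 8 act in the early steps, 8 in the magnesium branch and 6 in the late steps, and 7 breakdown genes. A gene was tested when its level reached 1 in at least 4 libraries, and 28 members passed. The member that did not was MANES_01G069700, a copy of SGR1, which lay above 0 in 2 libraries and reached 0.612. Each name is that of the Arabidopsis gene matched, and where several cassava genes carry one name, their reads could have been divided between them by the counting.

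Chlorophyll is made in the chloroplast from glutamate. The early steps lead to protoporphyrin, a branch point shared with heme, and the magnesium branch inserts the metal ion and closes the additional ring. The late steps reduce protochlorophyllide in the light, convert part of the pigment to chlorophyll b and attach the phytol tail. Breakdown reverses the chlorophyll b step, removes magnesium and phytol, opens the ring and runs strongly in senescing leaves.

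All 44 libraries came from leaf RNA of the cassava variety KU50, grown from lignified stem cuttings in Vietnam in 2019. Hanoi, the general field where plants did not flower, was sampled on 4 dates, 24 May, 13 July, 7 August and 10 October (16 libraries). Bac Kan, the mountainous area where plants flowered, was sampled on 31 May, 29 June, 26 July, 15 August, 11 September, 5 October and 30 October (28 libraries). Each date had 4 libraries, and the labels do not say whether these came from separate plants, so p-values measure the spread between these samples, which may be technical. Each site was 1 field, and site cannot be told apart from field, day and hour of sampling. The question addressed was how leaf transcripts differed between the sites, and 4 pairs of neighbouring dates were compared. The gap was 7 days for late May, 13 for July and 8 for August, with Hanoi sampled first, and 5 for October, with Hanoi sampled last.

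Levels are FPKM summed per gene and rescaled to a total of 1000000 per library. Differences are log2 of the level plus 1, Bac Kan minus Hanoi, given with their standard error (SE). They come from limma in 1 fit over all 11 groups, with p-values adjusted by Benjamini-Hochberg over the 23405 genes tested. A gene was called at an adjusted p under 0.05. The sum of the deposited FPKM in a library lay between 664145 and 804362, and 18275 to 19777 genes lay at 1 or more. Read totals are unknown, but the depth relative to the other libraries could be estimated from the spacing of low values and ran from 0.756 to 1.62. The estimate is rough, as it rests on the most frequent ratio of low values between 2 libraries. A median share of 0.184 of the genes compared lay at that ratio, and 817 of 946 library pairs were fitted within 0.1 log2. Leaf markers (RBCS, RCA, HCEF1, LHCB) summed to between 3250 and 9818. The flower list summed to at most 58.5, the young tissue list to at most 8.66 and the woody list to at most 20.6. The top 10 genes held 13.2 to 15.3% of the total in Hanoi on 24 May and 8.67 to 9.17% in Bac Kan on 31 May, and the woody list summed to 6.02 to 9.95 and 0.627 to 1.76. In October relative depth was 1.33 to 1.62 in Hanoi and 0.833 to 0.986 in Bac Kan. The leaf markers summed to 8733 to 9818 in Hanoi and 4782 to 6722 in Bac Kan in that pair. There 3 of 6 tested were called lower in Bac Kan (50%, against 13.6% of all genes tested). In August the leaf marker sum was 6820 to 7386 in Bac Kan against 4104 to 6079 in Hanoi. Of the 6, 2 were called higher there (33.3%, against 6.40%). In July the woody list summed to 12.7 to 20.6 in Bac Kan against 4.17 to 12.3 in Hanoi. Libraries of 24 May had a mean correlation of 0.865 to 0.876 with the others of their group, and those of the other groups 0.911 to 0.949. The part of these values in the differences was not tested. In leaf RNA of this kind, fewer cells of a type and less RNA per cell cannot be told apart.

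The direction of the site difference depended on the date and on the step of the pathway. In late May, 15 of the 28 members were called higher in Bac Kan and 1 lower, where 16.1% of all genes tested were called higher and 12.6% lower. In July, 2 were called higher and 2 lower, against 5.17% and 3.66% of all genes. In August, 9 were called higher and 4 lower, against 6.40% and 8.11%. In October, 7 were called higher and 11 lower, against 10.5% and 13.6%. The libraries of the sites did not overlap for 14 members in the late May pair, against 20.9% of all genes, and for 9 in July (12.6%), 12 in August (16.9%) and 20 in October (27.8%). As shares of the 28 members, higher calls in late May came to 53.6%, those of July to 7.14%, those of August to 32.1% and those of October to 25%. For lower calls the shares were 3.57%, 7.14%, 14.3% and 39.3%. The higher calls of late May, August and October and the lower calls of October thus made up larger shares of the members than of all genes, and the lower calls of late May a smaller one. The October count of lower calls moved with single libraries and was 6 without Bac Kan library 3 and 7 without Bac Kan library 4 of 5 October.

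The median difference of the 28 members was 0.55 in late May, where that of all genes was 0.06. It was -0.12 in July, 0.19 in August and -0.38 in October, beside medians of 0.06, -0.06 and -0.05 over all genes. Breakdown and synthesis genes went apart in October. All 4 breakdown genes called in that pair, of 6 tested, were higher in Bac Kan (66.7%, against 10.5% of all genes tested). Of the 22 synthesis genes tested, 14 were called, 11 lower (50%, against 13.6%) and 3 higher (13.6%, against 10.5%). The count of lower calls moved with single libraries as given above. With median-ratio scaling the October calls of the members changed from 7 higher and 11 lower to 8 and 8, and the July calls from 2 and 2 to 2 and 4. Over the 4 pairs, 24 members were called at least once. Of these, 9 were called higher in 1 pair or more and lower in another.

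**Figure D1:**
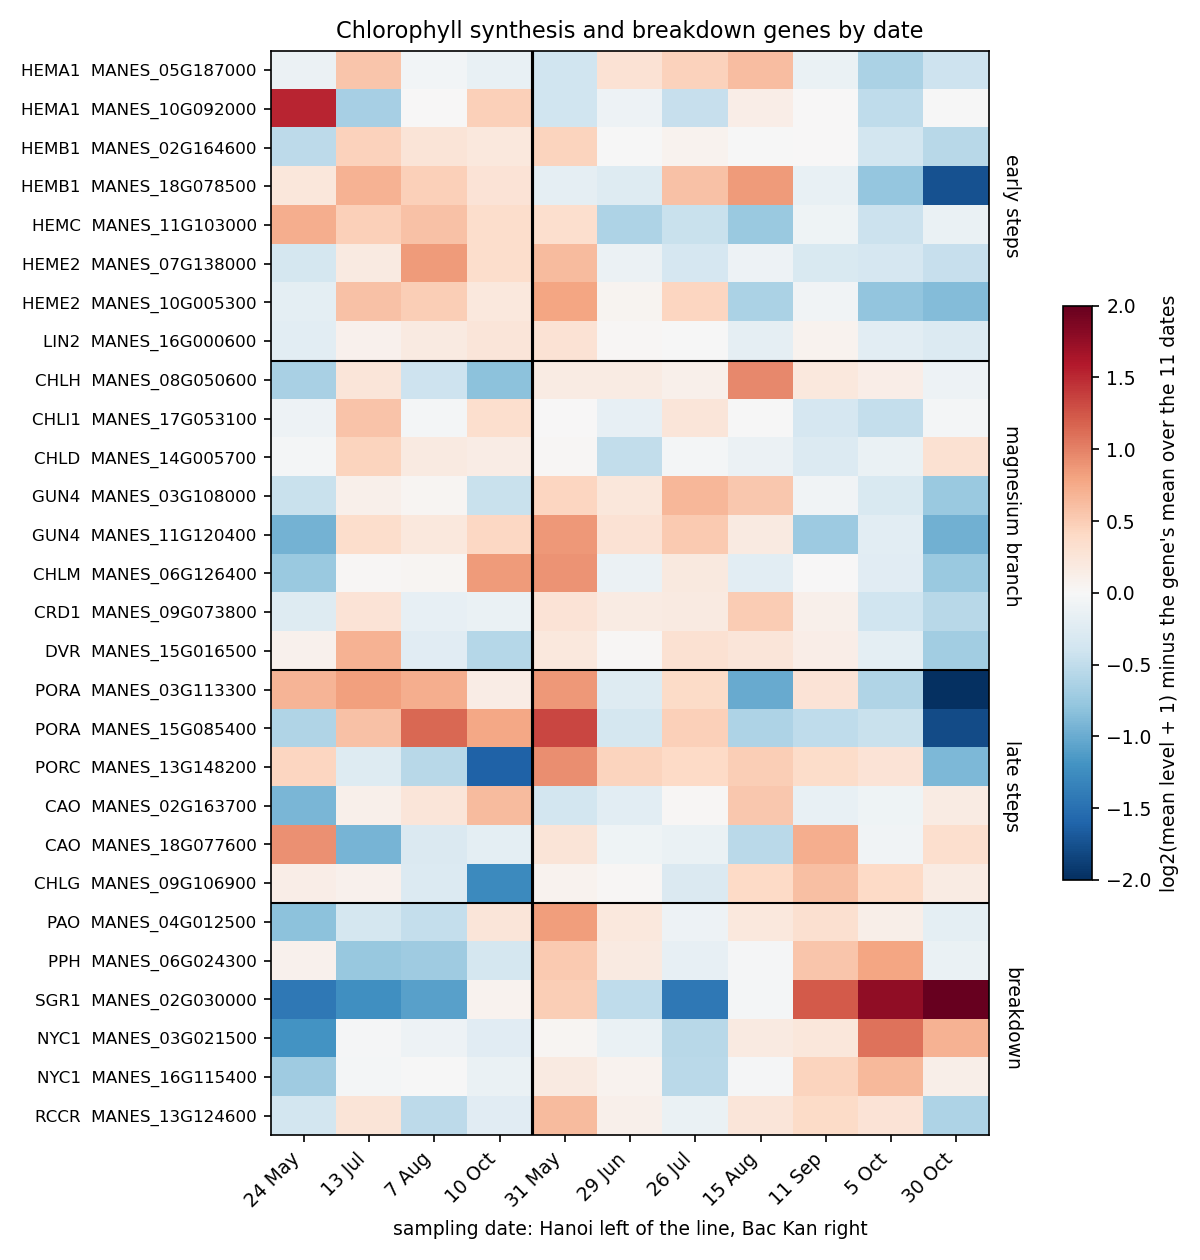
Mean level of the 28 tested chlorophyll genes at each of the 11 dates, as log2(mean level + 1) minus the gene's own mean over the dates (colour; red higher, blue lower), with Hanoi dates left of the vertical line and Bac Kan dates right of it. SGR1 turned from blue on 26 July to red from 11 September in Bac Kan, where both PORA copies and HEMB1 MANES_18G078500 were at their lowest on 30 October.

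Among the 8 genes of the early steps, 2 were called higher in Bac Kan and 1 lower in late May (25% and 12.5%, against 16.1% and 12.6% of all genes tested). In October all 5 calls were lower in Bac Kan (62.5%, against 13.6%). HEMA1 encodes glutamyl-tRNA reductase, the enzyme of the first committed step. Its copy MANES_10G092000 stood at 61.8, 65.4, 78.6 and 86.0 in the Hanoi libraries of 24 May and at 10.9, 17.2, 20.5 and 25.2 in those of Bac Kan on 31 May. The lowest Hanoi library was above the highest of Bac Kan, and the difference was -1.97 ± 0.24 (SE, limma adjusted p = 3.85e-08). In the last pair the 4 Hanoi libraries again lay higher, at 33.1 to 36.8 against 14.0 to 20.02 (-0.98 ± 0.24, limma adjusted p = 0.00173). In July and August the groups overlapped.

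The more abundant HEMA1 copy, MANES_05G187000, had levels of 139.6 to 471 in all libraries and did not follow this pattern. It was higher in Bac Kan in August, at 346 to 471 against 216 to 272 (0.67 ± 0.16, limma adjusted p = 0.00220). Its October difference was -0.50 ± 0.16 (limma adjusted p = 0.0160), and there 1 Bac Kan library lay inside the Hanoi range. Leaving out Hanoi library 2, Bac Kan library 3 or Bac Kan library 4 ended the October call, with p-values over all alternatives between 0.00457 and 0.0665.

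HEMB1 encodes 5-aminolevulinate dehydratase, which joins a pair of aminolevulinate molecules. In October its copy MANES_18G078500 was at 40.0, 42.2, 47.4 and 49.2 in Hanoi and at 15.3, 21.0, 23.7 and 24.3 in Bac Kan. The groups did not overlap, and the difference was -1.07 ± 0.20 (limma adjusted p = 0.000114). The other copy, MANES_02G164600, was higher in the Bac Kan libraries in late May by 0.95 ± 0.20 (limma adjusted p = 0.000380), with 57.0 to 88.9 against 29.6 to 43.3. The October levels were lower, at 32.9 to 48.3 against 53.6 to 67.1 (-0.59 ± 0.20, limma adjusted p = 0.0295). That October call was lost without any 1 of 5 libraries and with median-ratio scaling, with p-values over all alternatives from 0.0133 to 0.0982.

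HEME2, uroporphyrinogen decarboxylase, changed direction in the same way. Its copy MANES_10G005300 was at 81.8, 88.4, 90.8 and 162 in Bac Kan on 31 May, all above the 45.2 to 59.4 of Hanoi on 24 May (0.95 ± 0.22, limma adjusted p = 0.00101). In August it was at 34.4 to 44.3 in Bac Kan against 64.6 to 112 in Hanoi (-1.09 ± 0.22, limma adjusted p = 0.000433). The October range was 28.0 to 43.9 against 63.3 to 73.4 (-1.02 ± 0.22, limma adjusted p = 0.000504). The groups did not overlap in any of these 3 pairs. The other HEME2 copy, MANES_07G138000, stayed at or below 8.05 with libraries at 0 and was called in no pair.

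HEMC, porphobilinogen deaminase, was lower in Bac Kan in each pair by its estimate, and called in August alone, at 5.33 to 9.94 against 12.6 to 29.2 (-1.29 ± 0.33, limma adjusted p = 0.00543). The mean over its 4 pairs was -0.88 ± 0.17 (limma adjusted p = 8.91e-05). LIN2, coproporphyrinogen oxidase, was called in no pair, with differences from -0.46 to 0.51. For HEMC, LIN2 and the second HEME2 copy, the F test over the pairs made no call.

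**Figure D2:**
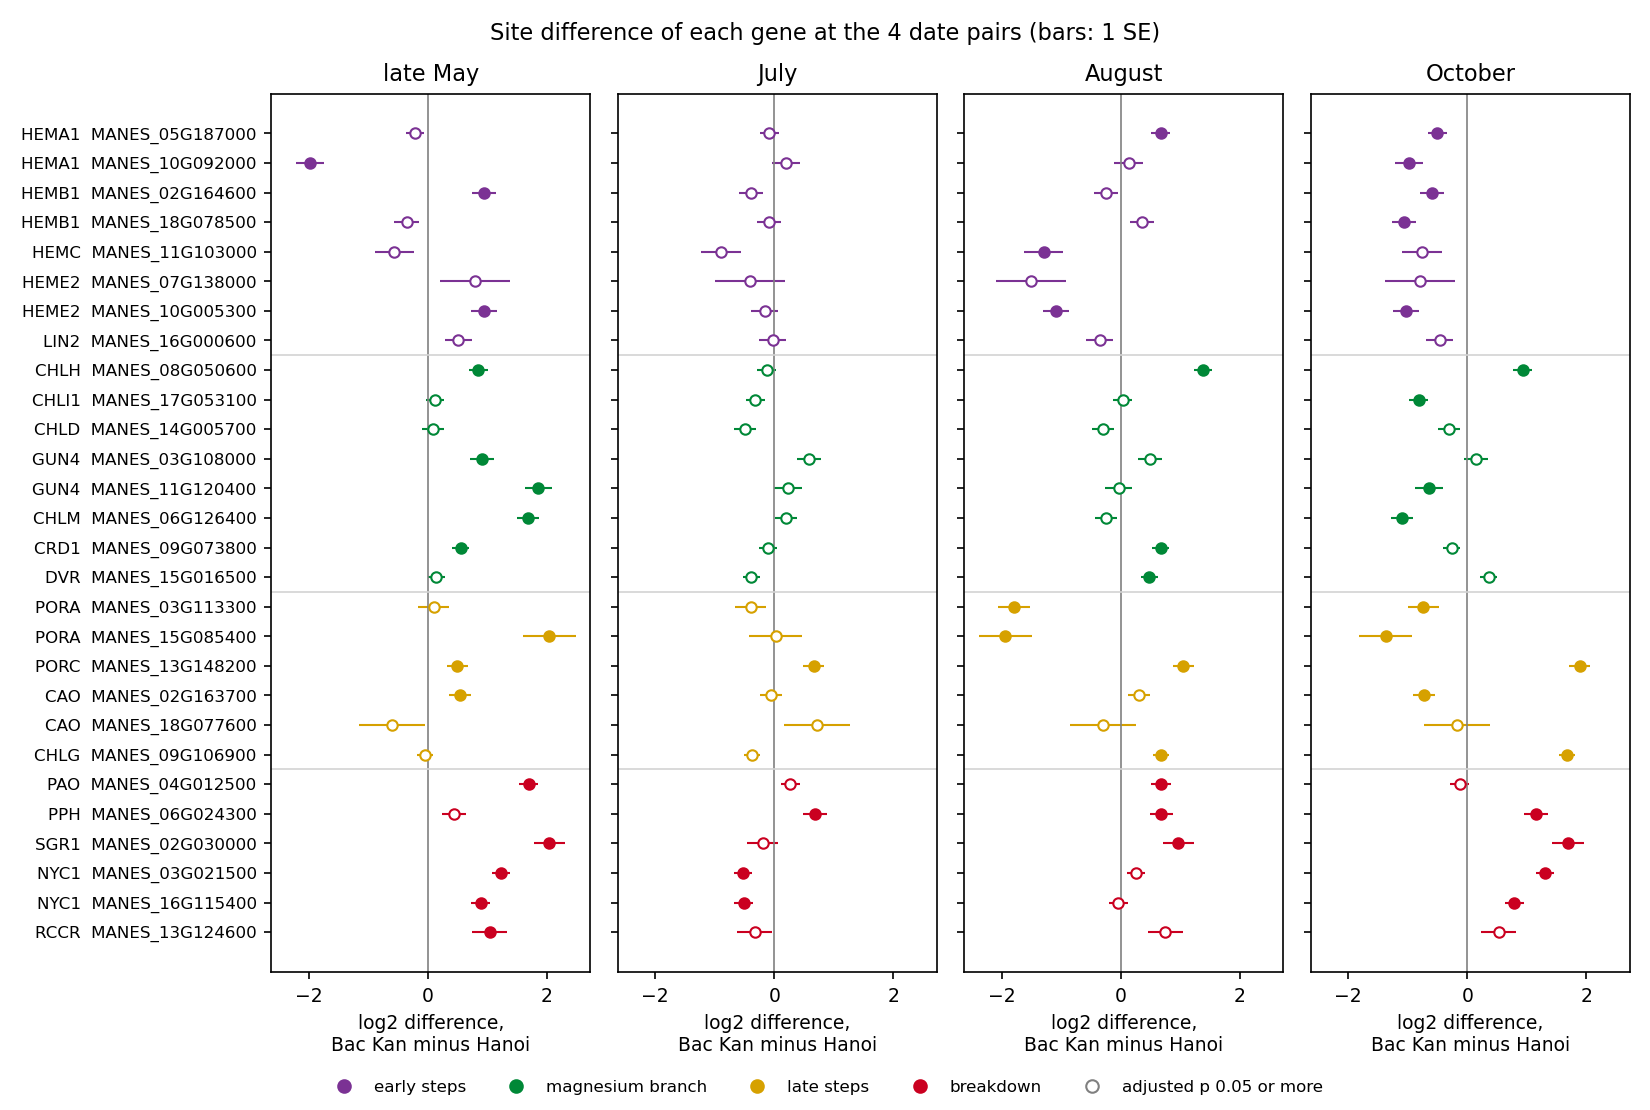
Site difference of each tested member at the 4 date pairs (log2 of level plus 1, Bac Kan minus Hanoi; points: limma estimates, bars: 1 SE, filled: adjusted p under 0.05), coloured by step. Filled points lie mostly right of 0 in late May, and in October the early steps lie left of 0 while 5 of the 6 breakdown genes lie right of it, 4 of them filled.

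In the magnesium branch, 5 of 8 genes were called higher in Bac Kan in late May (62.5%, against 16.1% of all genes tested). No gene of the branch was called in July by limma, where 5.17% of all genes were called higher and 3.66% lower. At an unadjusted p under 0.05, 1 was higher and 3 lower in July. In August 3 were called higher (37.5%, against 6.40%). In October 1 was higher and 3 lower (12.5% and 37.5%, against 10.5% and 13.6%), the higher share being near that of all genes. CHLH encodes the subunit of magnesium chelatase that binds the porphyrin. Its level was 304, 343, 350 and 357 in Bac Kan on 31 May and 129, 185, 199 and 255 in Hanoi on 24 May. In August it was 473, 581, 617 and 672 in Bac Kan against 159, 233, 241 and 273 in Hanoi. The October levels were 251, 328, 330 and 415 against 157, 167, 176 and 184. In these 3 pairs every Bac Kan library was above every Hanoi library, with differences of 0.85 ± 0.16, 1.38 ± 0.16 and 0.93 ± 0.16 (limma adjusted p = 7.20e-05, 3.83e-08 and 2.25e-05). In July the groups overlapped and the difference was -0.13 ± 0.16 (limma adjusted p = 0.716).

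The other chelatase subunits did not share the pattern of CHLH. CHLI1, the ATPase subunit I, was lower in Bac Kan in October, at 102 to 146 against 179 to 231 (-0.82 ± 0.16, limma adjusted p = 0.000106). It was called in no other pair. CHLD, which links the other subunits, was called in no pair, with differences from -0.50 to 0.09.

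GUN4 stimulates the chelatase. Its more abundant copy, MANES_11G120400, was at 749, 757, 1006 and 1218 in Bac Kan on 31 May and at 169, 210.0, 292 and 381 in Hanoi on 24 May. The difference of 1.86 ± 0.23 (limma adjusted p = 8.31e-08) was the largest of the branch in that pair, with no overlap. In October the order was turned, with 338 to 567 in Bac Kan against 630 to 744 in Hanoi (-0.64 ± 0.23, limma adjusted p = 0.0394). That October call was lost without any 1 of 7 libraries and with median-ratio scaling, with p-values over all alternatives from 0.0188 to 0.139. The copy MANES_03G108000 was higher in the Bac Kan libraries in late May by 0.91 ± 0.20 (limma adjusted p = 0.000595), at 154 to 258 against 56.7 to 141, and its call was lost when only the groups compared were fitted (0.0892, over all alternatives 0.000127 to 0.0892).

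CHLM methylates magnesium protoporphyrin, and it showed the largest reversal of the branch. Its level was 187, 206, 264 and 293 in Bac Kan on 31 May against 51.3, 56.7, 83.4 and 110 in Hanoi on 24 May (1.69 ± 0.18, limma adjusted p = 5.43e-09). The October levels were 96.4, 102, 108 and 123 in Bac Kan against 199, 223, 247 and 250.0 in Hanoi (-1.09 ± 0.18, limma adjusted p = 1.98e-05). The groups were separate in both pairs, in opposite order. The October difference minus the late May difference was -2.78 ± 0.26 (limma adjusted p = 2.04e-10).

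CRD1, a subunit of the cyclase that closes the additional ring, differed in late May (0.56 ± 0.14, limma adjusted p = 0.00287), where the libraries of both sites overlapped. In August it was at 535 to 765 against 354 to 447 (0.67 ± 0.14, limma adjusted p = 0.000795). The late May call was lost when only the groups compared were fitted (0.0952, over all alternatives 0.000188 to 0.0952). DVR, divinyl reductase, was called in August alone, at 259 to 320 against 181 to 226 (0.48 ± 0.14, limma adjusted p = 0.0186), and not without Hanoi library 4 or Bac Kan library 3 or 4 (all alternatives 0.00830 to 0.0766).

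The late steps held the 1 member called higher in Bac Kan in all 4 pairs. PORC encodes a light-dependent protochlorophyllide oxidoreductase, an enzyme also encoded by PORA and PORB in Arabidopsis. In late May its level was 86.7, 123, 127 and 163 in Bac Kan against 63.8, 85.7, 88.5 and 112 in Hanoi, with overlap (0.50 ± 0.18, limma adjusted p = 0.0297). In July it was 80.7 to 88.6 against 49.1 to 64.1 (0.66 ± 0.18, limma adjusted p = 0.0119). In August it was 82.6, 84.4, 98.1 and 102 against 35.5, 39.9, 47.4 and 53.1 (1.05 ± 0.18, limma adjusted p = 3.09e-05). The October levels were 64.2, 71.5, 85.0 and 95.2 against 16.6, 19.7, 19.7 and 26.4 (1.89 ± 0.18, limma adjusted p = 1.21e-10). From July on, every Bac Kan library of a pair lay above every Hanoi library. The difference was larger in October than in late May by 1.39 ± 0.25 (limma adjusted p = 4.17e-05). The late May call was lost without any 1 of 5 libraries, with a limma adjusted p of 0.151 without Hanoi library 2 and 0.157 without Bac Kan library 2 (all alternatives 0.00541 to 0.195).

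The copies named PORA went the other way in the later pairs. MANES_03G113300 was at 13.6, 28.5, 32.3 and 38.1 in Bac Kan in August against 75.2, 83.4, 107 and 116 in Hanoi (-1.79 ± 0.26, limma adjusted p = 3.36e-06). Its October range was 31.6 to 44.6 against 53.0 to 77.0 (-0.74 ± 0.26, limma adjusted p = 0.0342). MANES_15G085400 was first higher in Bac Kan, in late May at 11.8 to 38.5 against 1.84 to 11.9 with slight overlap (2.04 ± 0.45, limma adjusted p = 0.000538). It was lower in August, at 2.69 to 12.7 against 14.3 to 29.7 (-1.94 ± 0.45, limma adjusted p = 0.00189), and in October, at 1.63 to 10.6 against 12.2 to 22.4 (-1.37 ± 0.45, limma adjusted p = 0.0212). The October calls of both copies were lost without some single libraries, 4 for MANES_03G113300 (all alternatives 0.0157 to 0.106) and 2 for MANES_15G085400 (all alternatives 0.0100 to 0.146).

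On this per-length scale, the share of PORC in the summed level of the 3 tested POR genes was computed after these values had been seen, and is given without a test. In Hanoi it was 46.7% ± 7.55 (SD, n = 4) on 24 May, 33.2% ± 9.38 on 13 July, 27.4% ± 2.49 on 7 August, then 20.5% ± 1.91 by 10 October. In Bac Kan it lay at 49.9% ± 11.1 on 31 May, 49.5% ± 4.41 on 26 July, 73.4% ± 9.77 on 15 August and 64.1% ± 5.35 on 5 October. The ranges of the sites overlapped in late May, and from July on the lowest Bac Kan library was above the highest of Hanoi in each pair. The summed POR level was 101 ± 20.4 in Hanoi on 10 October and 123 ± 19.3 in Bac Kan on 5 October, and these ranges overlapped.

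**Figure D3:**
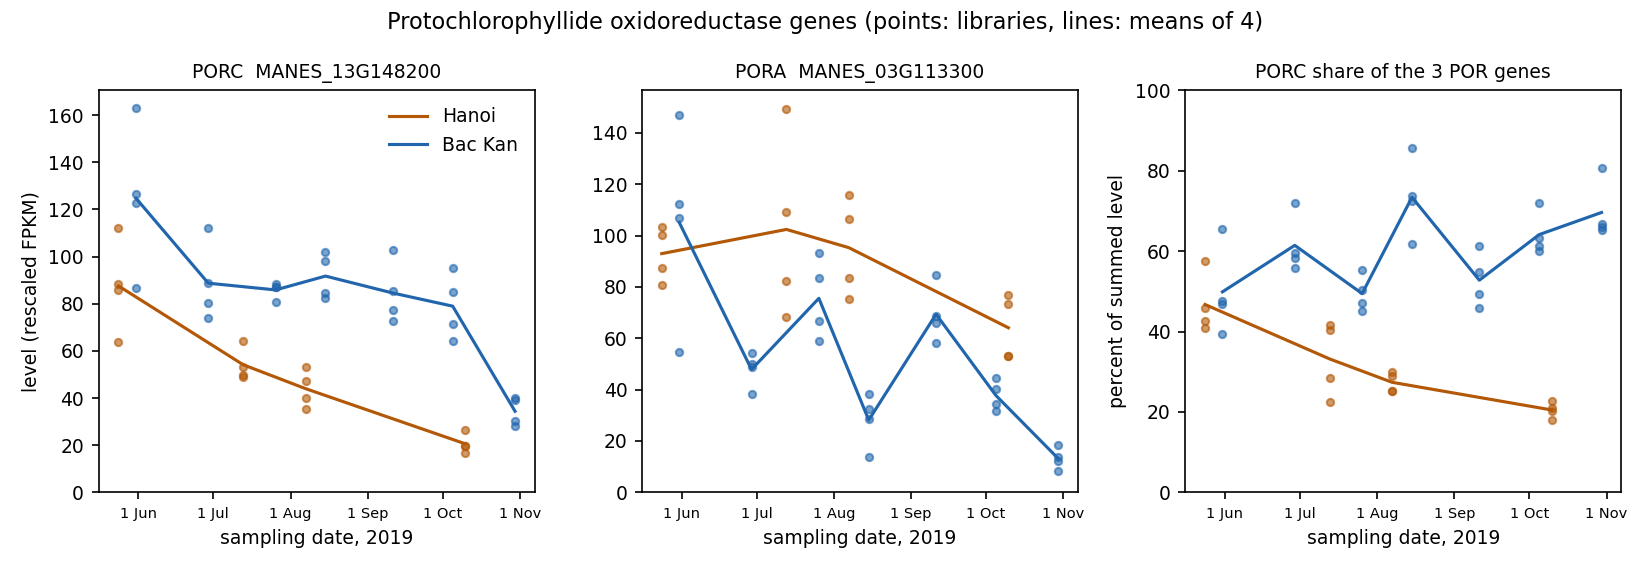
Levels of PORC and of PORA MANES_03G113300 (rescaled FPKM) and the percentage of PORC in the summed level of the 3 POR genes, by sampling date in 2019 (points: libraries; lines: means of 4; brown Hanoi, blue Bac Kan). PORC lies higher in Bac Kan in every date pair by its mean, and its mean share in Hanoi goes from 46.7% to 20.5%.

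CHLG, chlorophyll synthase, adds the phytol tail. In October it was at 207, 214, 216 and 243 in Bac Kan against 64.6, 67.3, 68.4 and 72.5 in Hanoi. The lowest Bac Kan library was well above the highest of Hanoi, and the difference was 1.68 ± 0.13 (limma adjusted p = 3.36e-12). In August it was 0.67 ± 0.13 higher in Bac Kan (limma adjusted p = 0.000379), and it was not called in late May or July. Without the October pair its mean difference fell from 0.48 to 0.08 (limma adjusted p = 0.498, over all alternatives 6.41e-10 to 0.757).

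CAO oxidises chlorophyllide a to form chlorophyll b. Its copy MANES_02G163700 was at 95.4 to 114 in Bac Kan in October, below the 169 to 186 of Hanoi (-0.73 ± 0.18, limma adjusted p = 0.00265). In late May it was at 78.0 to 98.5 against 52.8 to 68.3 (0.54 ± 0.18, limma adjusted p = 0.0233), a call lost without any 1 of 4 libraries (all alternatives 0.0132 to 0.0725). The copy MANES_18G077600 was at 7.74 or less with libraries at 0, and was called in no pair.

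Most breakdown genes were called higher in Bac Kan in late May and October. Of the 6 tested, 5 were called higher in late May (83.3%, against 16.1% of all genes tested). In August 3 were called higher (50%, against 6.40%) and in October 4 (66.7%, against 10.5%). In July 1 was higher and 2 lower (16.7% and 33.3%, against 5.17% and 3.66%). All 6 were called higher in the mean of the 4 pairs, where 12.5% of all genes tested were called higher. With the date means as samples limma called none of the 6 (adjusted p = 0.503 to 0.830), and the call of NYC1 MANES_16G115400 was lost without late May or October and that of RCCR without late May or August. The median difference of the 6 was 1.14 in the late May pair and -0.26 in July, then 0.68 in August and 0.97 in October.

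SGR1, STAY-GREEN, removes magnesium from chlorophyll a. Its copy MANES_02G030000 was at 28.2, 28.3, 34.8 and 40.7 in Bac Kan on 31 May and at 2.87, 6.93, 10.0 and 12.1 in Hanoi on 24 May (2.04 ± 0.26, limma adjusted p = 1.40e-07). In July both sites lay between 6.59 and 11.4 and overlapped. In August it was at 10.5, 24.2, 25.1 and 30.3 in Bac Kan against 9.65, 10.5, 10.5 and 10.5 in Hanoi (0.97 ± 0.26, limma adjusted p = 0.00864). There 3 Bac Kan libraries were above all of Hanoi and 1 lay among them, and the call was lost when only the groups compared were fitted (0.0885, over all alternatives 0.000406 to 0.0885). In October it was at 73.2, 75.1, 76.4 and 101 in Bac Kan against 22.7, 23.7, 24.4 and 26.2 in Hanoi (1.69 ± 0.26, limma adjusted p = 4.38e-06).

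NYC1, chlorophyll b reductase, starts the conversion of chlorophyll b back to a. Its more abundant copy, MANES_03G021500, was at 203 to 254 in Bac Kan in late May against 85.9 to 108 in Hanoi (1.23 ± 0.15, limma adjusted p = 8.50e-08). In October it was at 402, 434, 516 and 520 in Bac Kan against 159, 184, 189 and 224 in Hanoi (1.304 ± 0.15, limma adjusted p = 2.46e-08). In July the order was turned, at 133 to 171 against 180.3 to 296 (-0.52 ± 0.15, limma adjusted p = 0.0264). The copy MANES_16G115400 moved the same way, with 0.89 ± 0.16 in late May, -0.51 ± 0.16 in July and 0.79 ± 0.16 in October (limma adjusted p = 5.36e-05, 0.0409 and 0.000282). For both copies the groups were separate in these 3 pairs. Both July calls were lost without single libraries, 4 for the first copy (all alternatives 0.0102 to 0.156) and 6 for the other (all alternatives 0.0190 to 0.188).

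PPH, pheophytinase, removes the phytol tail after magnesium. It was at 64.0, 78.9, 94.0 and 102 in Bac Kan in October against 26.8, 35.5, 41.6 and 46.8 in Hanoi (1.15 ± 0.20, limma adjusted p = 2.05e-05). The groups were also separate in July, at 39.3 to 46.6 against 16.5 to 38.9, and in August, at 39.4 to 53.7 against 24.8 to 35.3. The difference was 0.69 ± 0.20 in both (limma adjusted p = 0.0210 and 0.0131). With the most abundant transcript alone the October difference was 0.75 (limma adjusted p = 0.0781, over all alternatives 4.65e-06 to 0.0781) and the July difference 1.17 (limma adjusted p = 0.0121). The July call was lost without any 1 of 4 libraries (all alternatives 0.00480 to 0.231) and the August call without Hanoi library 4 (all alternatives 0.00612 to 0.0511).

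PAO, pheophorbide a oxygenase, opens the ring. It was at 101, 123, 128 and 138 in Bac Kan in late May against 25.3, 37.0, 37.6 and 53.1 in Hanoi (1.69 ± 0.16, limma adjusted p = 3.06e-10), and in August at 64.6 to 86.6 against 42.9 to 55.8 (0.68 ± 0.16, limma adjusted p = 0.00273). In October, when 4 other breakdown genes were higher in Bac Kan, its difference was -0.13 ± 0.16 (limma adjusted p = 0.632). RCCR reduces the product of PAO, and was called in late May alone, at 51.9 to 71.3 against 17.9 to 40.2 (1.04 ± 0.29, limma adjusted p = 0.00589).

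In the mean of the 4 pairs, 12 members were called higher in Bac Kan and 7 lower, where 12.5% of all genes tested were called higher and 12.7% lower. The largest means were those of SGR1 at 1.13 ± 0.13 (limma adjusted p = 1.44e-08) and PORC at 1.03 ± 0.09 (limma adjusted p = 1.46e-11). CHLH followed at 0.76 ± 0.08 (limma adjusted p = 1.53e-09), PPH at 0.74 ± 0.10 (limma adjusted p = 2.05e-07) and PAO at 0.63 ± 0.08 (limma adjusted p = 1.30e-07). The remaining higher calls were NYC1 MANES_03G021500 (0.57), GUN4 MANES_03G108000 (0.53), RCCR (0.50), CHLG (0.48), GUN4 MANES_11G120400 (0.35), NYC1 MANES_16G115400 (0.28) and CRD1 (0.22). The lower calls were HEMC (-0.88), PORA MANES_03G113300 (-0.71), HEMA1 MANES_10G092000 (-0.66), HEME2 MANES_10G005300 (-0.33), HEMB1 MANES_18G078500 (-0.29), CHLD (-0.26) and CHLI1 (-0.24). The 4 early genes called and the chelatase subunits I and D were thus on the lower side, and the 6 breakdown genes tested on the higher side. Of the 19 calls, 8 were kept whichever date pair was left out (HEMC, CHLH, GUN4 MANES_03G108000, PORC, PAO, PPH, SGR1 and NYC1 MANES_03G021500) and 11 were not. Among those kept, the mean of PAO was 0.27 without late May, and that of NYC1 MANES_03G021500 was 0.35 without late May, 0.93 without July and 0.32 without October. Without late May the mean was -0.22 for HEMA1 MANES_10G092000, -0.15 for GUN4 MANES_11G120400, 0.10 for CRD1, 0.08 for NYC1 MANES_16G115400 and 0.32 for RCCR. Without August it was -0.08 for HEME2 MANES_10G005300, 0.07 for CRD1 and -0.35 for PORA MANES_03G113300, and without October -0.03 for HEMB1 MANES_18G078500, -0.05 for CHLI1, 0.08 for CHLG, -0.10 for HEME2 MANES_10G005300 and 0.11 for NYC1 MANES_16G115400. Other pairs left out made some of these means larger, with the call kept: without July 0.77 for CHLG, 0.77 for RCCR and 0.55 for NYC1 MANES_16G115400, without October 0.69 for GUN4 MANES_11G120400 and 0.38 for CRD1, without late May -0.76 for HEME2 MANES_10G005300 and without August -0.50 for HEMB1 MANES_18G078500. CHLD was not called without July (-0.18), August or October. For HEMB1 MANES_18G078500, CHLI1 and RCCR the call was lost in 2 of the 4 settings each, and the mean is given here for 1 of those 2. When the date means were used as the samples, 4 for each site, no member was called by limma, the lowest adjusted p of a member was 0.490, and 6 members had an unadjusted p under 0.05, of which 5 were higher in Bac Kan.

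The site difference itself changed between pairs for 21 of the 28 members by limma's F test with 3 degrees of freedom, against 38.1% of all genes tested. From late May to October it fell for 11 members and rose for 4, where 16.9% of all genes fell and 12.1% rose. The members that fell were PORA MANES_15G085400 (-3.41 ± 0.63), CHLM (-2.78 ± 0.26), GUN4 MANES_11G120400 (-2.50 ± 0.33), HEME2 MANES_10G005300 (-1.97 ± 0.31), PAO (-1.82 ± 0.23), HEMB1 MANES_02G164600 (-1.54 ± 0.29), CAO MANES_02G163700 (-1.27 ± 0.26), LIN2 (-0.97 ± 0.32), CHLI1 (-0.93 ± 0.22), CRD1 (-0.81 ± 0.20) and GUN4 MANES_03G108000 (-0.77 ± 0.28). Those that rose were CHLG (1.72 ± 0.19), PORC (1.39 ± 0.25), HEMA1 MANES_10G092000 (0.99 ± 0.33) and PPH (0.71 ± 0.28). Of the 11 that fell, 10 were synthesis genes, of 22 tested (45.5%), and 1 was a breakdown gene, of 6 tested (16.7%). Among the synthesis genes 3 rose (13.6%), and among the breakdown genes 1 rose (16.7%). The value of GUN4 MANES_03G108000 was -0.50 (limma adjusted p = 0.144) without Hanoi library 3 of 24 May (all alternatives 0.0113 to 0.144), and that of PPH, lost in 33 alternatives, was 0.05 (limma adjusted p = 0.952) with the most abundant transcript alone (all alternatives 0.0187 to 0.952).

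Within Bac Kan, the season from 31 May to 30 October went with lower synthesis transcripts and a rise of SGR1. Of the 28 members, 15 were called lower on the last date and 3 higher, against 9.80% and 16.1% of all genes tested. The libraries of these dates did not overlap for 17 members, against 25.0% of all genes. Of the 6 leaf markers tested, 3 were called lower and 1 higher (50% and 16.7%). The leaf marker sum was 3814 to 4886 on 31 May and 5195 to 5529 on 30 October. A list of 28 tested other genes of tetrapyrrole metabolism, described below, gave 8 lower and 2 higher calls (28.6% and 7.14%). Relative depth was 0.947 to 1.42 and 0.756 to 1.10. The part of these values in the differences was not tested. Of the 22 synthesis genes, 12 fell and 1 rose (54.5% and 4.55%, against the same shares of all genes). Their lowest Bac Kan mean was on 30 October for 14, and the share of all genes with this was not computed. The median difference of the members was -0.71, beside 0.10 over all genes, and median-ratio scaling moved the latter to -0.01. With that scaling the calls over all genes went from 62.1% higher to 48.8% higher, and those of the members from 3 higher and 15 lower to 2 and 15.

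PORA fell most. Its copy MANES_03G113300 went from 54.5, 107, 112 and 147 on 31 May to 8.28, 12.1, 13.6 and 18.5 on 30 October (-2.87 ± 0.26, limma adjusted p = 6.09e-11), and MANES_15G085400 from 24.7 ± 11.0 (SD, n = 4) to 1.92 ± 1.54 (-3.18 ± 0.45, limma adjusted p = 6.88e-07, and -2.05 with a pseudocount of 5). PORC went from 125 ± 31.3 to 34.4 ± 6.09 (-1.81 ± 0.18, limma adjusted p = 2.43e-10), so that the summed POR level on 30 October was 49.5 ± 8.06 (SD, n = 4). GUN4 MANES_11G120400 went from 932 ± 225 to 262 ± 56.2, and CHLM from 238 ± 49.2 to 75.2 ± 3.85. The differences were -1.83 ± 0.23 and -1.62 ± 0.18 (limma adjusted p = 9.25e-08 and 8.91e-09). HEME2 MANES_10G005300 fell by 1.67 ± 0.22 and HEMB1 MANES_18G078500 by 1.58 ± 0.20 (limma adjusted p = 2.10e-07 and 1.28e-07). The libraries of this HEMB1 copy lay at 53.3 to 86.4 on 15 August, 15.3 to 24.3 on 5 October and 8.38 to 14.5 on 30 October, without overlap.

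SGR1 had its lowest Bac Kan mean in July and its highest on the last date. The mean level was 33.0 ± 6.02 (SD, n = 4) on 31 May, 15.9 ± 3.39 on 29 June and 7.97 ± 1.95 on 26 July, and then 22.5 ± 8.44, 55.5 ± 9.55, 81.4 ± 13.0 and 104 ± 19.5 on the 4 later dates. The last date was 1.62 ± 0.26 above the first (limma adjusted p = 7.42e-06). The highest and lowest means lay 13.1 times apart. The 2 NYC1 copies, SGR1 and PPH all had their lowest Bac Kan mean on 26 July. NYC1 MANES_03G021500 peaked on 5 October at 468 ± 59.3 and was 0.65 ± 0.15 higher on 30 October than on 31 May (limma adjusted p = 0.00134). The other breakdown genes did not follow SGR1, since PAO, PPH and RCCR were lower on the last date than on the first, by -1.03 ± 0.16, -0.66 ± 0.20 and -1.25 ± 0.29 (limma adjusted p = 5.49e-06, 0.0106 and 0.00112). With the most abundant transcript alone the PPH value was -1.25. The third call upward was that of CAO MANES_02G163700 (0.52 ± 0.18, limma adjusted p = 0.0302), lost with deposited FPKM, with median-ratio scaling and without any 1 of 4 libraries (all alternatives 0.0141 to 0.185). The call of LIN2 (-0.64) was lost without Bac Kan library 3 of 30 October (-0.37, limma adjusted p = 0.237, all alternatives 0.00529 to 0.237).

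**Figure D4:**
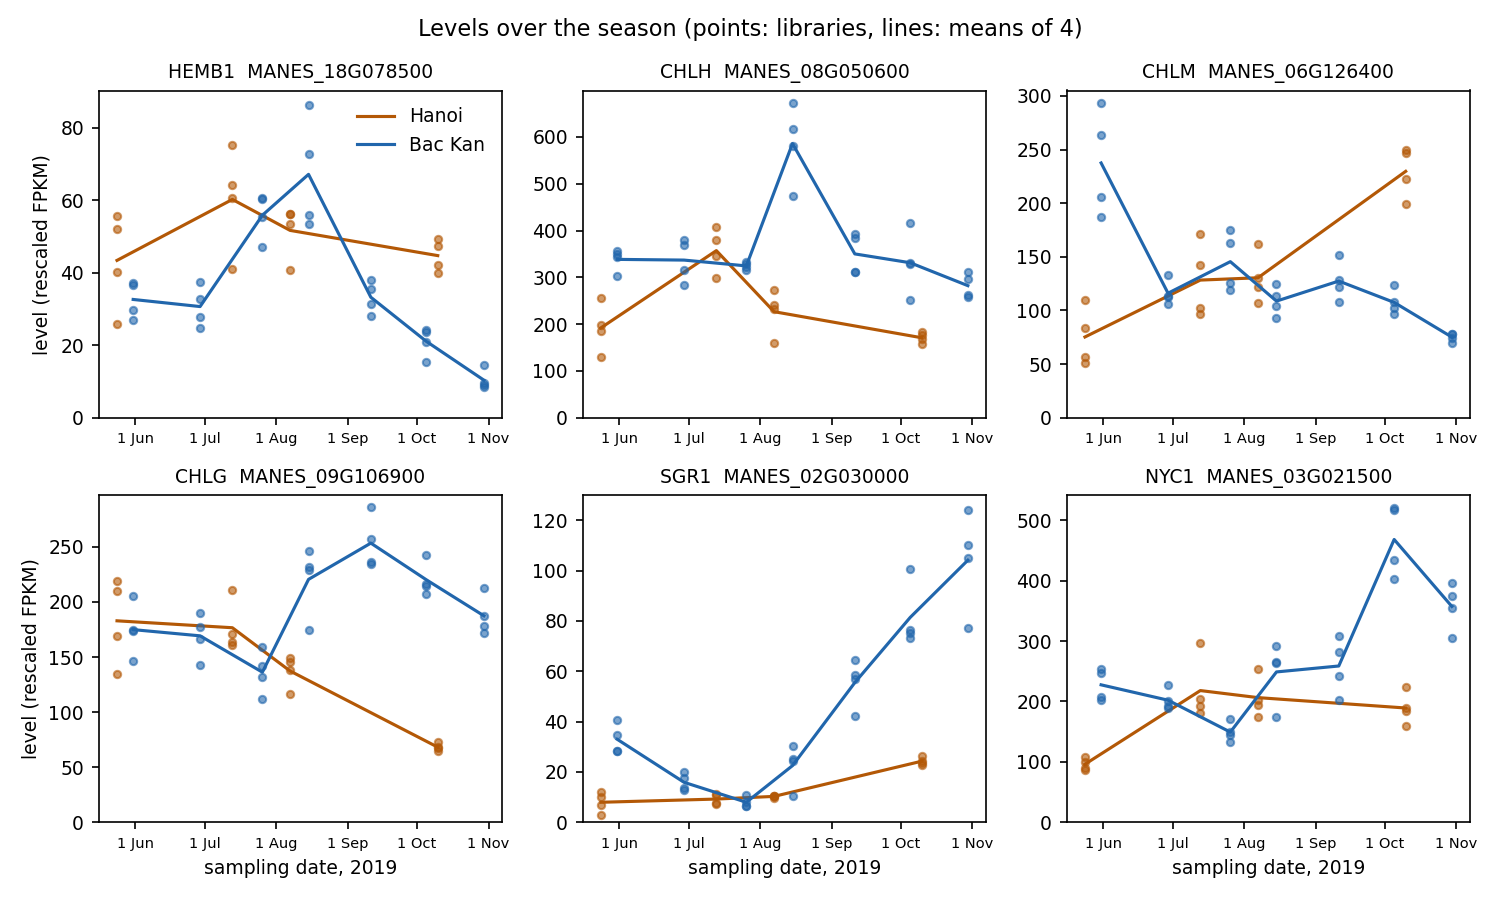
Levels of 6 members (rescaled FPKM, linear axes from 0) by sampling date in 2019 (points: libraries; lines: means of 4; brown Hanoi, blue Bac Kan). The SGR1 mean in Bac Kan goes from 7.97 on 26 July to 104 on 30 October, that of HEMB1 MANES_18G078500 from 67.1 on 15 August to 10.4, and that of CHLG in Hanoi from 183 to 68.2.

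Within Hanoi, as among all genes, more members rose than fell. From 24 May to 10 October, 10 members were called higher and 4 lower (35.7% and 14.3%), against 25.3% and 17.2% of all genes tested, and the libraries did not overlap for 17 members, against 33.9%. The leaf markers summed to 3250 to 5467 on 24 May and 8733 to 9818 on 10 October, with 2 of 6 called higher, and the woody list to 6.02 to 9.95 and 0.230 to 2.57, with 2 of 5 called lower. Relative depth was 0.909 to 1.02 and 1.33 to 1.62. Of the 28, 16 had their lowest Hanoi mean on 24 May, and the share of all genes with this was not computed. With median-ratio scaling these calls were 9 higher and 6 lower, and the median of all genes went from 0.13 to 0.02. CHLM rose from 75.3 ± 27.0 to 230 ± 23.8 (SD, n = 4), CAO MANES_02G163700 from 59.9 ± 6.73 to 177 ± 7.23, and GUN4 MANES_11G120400 from 263 ± 94.0 to 678 ± 52.0. Their differences were 1.66 ± 0.18, 1.55 ± 0.18 and 1.43 ± 0.23 (limma adjusted p = 2.12e-09, 7.29e-09 and 3.78e-06). SGR1 rose by 1.63 ± 0.26, PORA MANES_15G085400 by 1.54 ± 0.45 and PAO by 1.11 ± 0.16 (limma adjusted p = 3.16e-06, 0.00496 and 6.32e-07). The 4 that fell were PORC at -2.03 ± 0.18, CHLG at -1.39 ± 0.13, HEMA1 MANES_10G092000 at -1.04 ± 0.24 and DVR at -0.64 ± 0.14 (limma adjusted p = 5.77e-12, 8.99e-11, 0.000487 and 0.000411). CHLG went from 183 ± 39.1 to 68.2 ± 3.29.

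Over all dates of a site, limma's F tests called 23 members in Bac Kan and 21 in Hanoi, where 44.8% and 50.4% of all genes tested were called. The smallest adjusted p in Bac Kan was that of SGR1 (1.11e-13), followed by HEMB1 MANES_18G078500 (5.84e-12) and PORA MANES_03G113300 (1.07e-10). In Hanoi the smallest were those of CHLG (5.88e-11), PORC (6.18e-11) and HEMA1 MANES_10G092000 (9.16e-09). HEMC, LIN2 and HEME2 MANES_07G138000 were called at neither site. The Bac Kan dates are more numerous and cover a longer span, so the counts of the sites are not on the same footing.

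A list of other genes tied to tetrapyrrole metabolism, not all of them enzymes, held 33 genes, of which 28 were tested. It gave 13 higher calls in Bac Kan in the late May pair (46.4%, against 16.1% of all genes tested). In August it gave 5 (17.9%, against 6.40%) and in October 4 (14.3%, against 10.5%). There were 2 lower calls in August (7.14%, against 8.11%) and 3 in October (10.7%, against 13.6%), so that the October counts and the lower calls of August lay near the shares of all genes. In July, where limma called none, 4 were lower and 0 higher at an unadjusted p under 0.05. In late May NOL, the partner of NYC1, was at 9.60 to 14.0 against 0 to 8.57 (1.89 ± 0.60, limma adjusted p = 0.0154), and CLH2, a chlorophyllase, was 1.45 ± 0.25 higher (limma adjusted p = 2.08e-05). HEME1, the other uroporphyrinogen decarboxylase of Arabidopsis, was 1.44 ± 0.18 higher (limma adjusted p = 8.31e-08), and VTE5, phytol kinase, 1.81 ± 0.33 (limma adjusted p = 4.66e-05). In August SGRL, a STAY-GREEN relative, was 1.94 ± 0.47 higher (limma adjusted p = 0.00314) and TIC55, which acts on breakdown products, 0.73 ± 0.12 (limma adjusted p = 3.26e-05). In October CHLI2 was 1.14 ± 0.38 higher (limma adjusted p = 0.0224). It is a low gene, at 0 to 14.8 over all libraries, where CHLI1, lower in that pair, lay at 102 to 280.

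Of the regulators of the pathway, 16 were tested, and 10 were called higher in Bac Kan in the late May pair (62.5%, against 16.1% of all genes tested). In that pair 0 were called lower, against 12.6% of all genes, and 1 was lower at an unadjusted p under 0.05. In July 1 was higher and 1 lower (6.25% each, against 5.17% and 3.66%). In August 6 were higher and 1 lower (37.5% and 6.25%, against 6.40% and 8.11%), and in October 5 and 2 (31.2% and 12.5%, against 10.5% and 13.6%). The lower calls of August and October and the calls of July lay near the shares of all genes. CGA1 and GNC are GATA factors that promote greening in Arabidopsis. CGA1 was at 22.0 to 33.3 against 0 to 19.0 in late May, at 22.8 to 48.3 against 3.08 to 10.9 in August and at 40.7 to 59.5 against 15.3 to 25.9 in October. Its differences were 2.02 ± 0.49, 2.23 ± 0.49 and 1.31 ± 0.49 (limma adjusted p = 0.00172, 0.00123 and 0.0488). The groups did not overlap in these pairs. The October call of CGA1 was lost in 34 alternatives (all alternatives 0.00204 to 0.228), and its late May call and that of NOL in 1 and 2 (0.000141 to 0.169 and 0.00392 to 0.110). GNC MANES_16G080400 was at 51.2 to 77.2 against 10.6 to 19.5 in August (1.98 ± 0.31, limma adjusted p = 1.22e-05) and 1.46 ± 0.31 higher in October (limma adjusted p = 0.000475). HY5, a light-signalling factor, was at 50.9 to 65.3 in Bac Kan against 10.3 to 16.1 in Hanoi in July (2.01 ± 0.24, limma adjusted p = 3.10e-07). In Bac Kan it was at 87.5 to 89.8 on 30 October against 20.2 to 45.9 on 31 May (1.47 ± 0.24, limma adjusted p = 8.02e-06). A relation of these regulators to the chlorophyll genes was not tested. A single copy of PIF1, a repressor of chlorophyll synthesis in the dark in Arabidopsis, differed by -1.03 ± 0.34 in October (limma adjusted p = 0.0235). The 2 tested copies, MANES_12G044000 and MANES_13G043000, lay at 2.63 to 39.0 and 1.99 to 11.5 over all libraries. The value given belongs to 1 copy only, and that of the other is not given.

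General senescence markers are given beside the breakdown genes. Their summed level was 555 to 1843 over all libraries, of which SAG14 MANES_06G056400 alone lay at 258 to 1271. The tested SAG12 copy reached 5.78. In the late May pair 1 of 10 tested was called higher in Bac Kan and 0 lower (against 16.1% and 12.6% of all genes tested). At an unadjusted p under 0.05, 3 were higher there. The October sum of the senescence list was 1231 to 1432 in Bac Kan, overlapping the 1293 to 1547 of Hanoi. In that pair 2 of 10 tested were called lower in Bac Kan (20%, against 13.6% of all genes tested). Within Bac Kan the sum was 673 to 888 on 31 May and 1227 to 1843 on 30 October. Between these dates 4 were called higher and 3 lower (40% and 30%, against 16.1% and 9.80%). Within Hanoi 6 of 10 were called higher on 10 October than on 24 May and 1 lower (60% and 10%, against 25.3% and 17.2%). Of the 24 senescence genes listed, 7 were at 0 in every library, and the part of senescing tissue in the differences of breakdown genes was not tested.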

How the data were processed

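RNA of cassava leaves was measured in 44 libraries of 11 groups. Per the labels, cDNA libraries were amplified by 14 PCR cycles, and TopHat2 is named in the submitters' processing notes. The authors deposited FPKM (fragments per kilobase of transcript, scaled to the library) for 41491 transcripts in 11 tables, 1 per group. The quantifier, genome build and annotation release are not given in the sources used here, and every comparison between groups crosses tables. Site and date were taken from titles and descriptions, because the characteristics disagree with them. The nearest library belonged to the same group for 43 of 44 libraries. The columns carry no replicate number, so a library number is only a place in a table. In addition, 1 column of the 30 October table, equal in all 41491 transcripts to a 5 October column, was not used.

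FPKM were summed over transcripts (5253 of 34120 genes had more than 1), rescaled to 1000000, filtered at 1 in at least 4 libraries and tested as log2(x + 1) with limma 3.58.1 in R 4.3.3 (trend, empirical Bayes, 1 fit, two-sided, 23405 genes). The log2 scale understates changes of low genes. Relative depth was estimated from low values, and no counting error can be given. The members and gene lists were chosen with earlier results of these data known. Called members were picked for description by size of change, up to 8 per comparison, with more in some comparisons. Of each list up to 4 called genes were picked in the same way. All members called in the mean of the pairs are named with that mean. For most of them its SE and p-value are not given, and for CHLD no levels by pair are given. Alternatives were 2 other pseudocounts, 2 other filters, 2 other scalings, 1 transcript per gene, only the groups compared, date means, and leaving out each library. Leaving out each date pair from the mean was added after seeing the data. The reference table of gene names held 0 of the cassava IDs, so positions and sequences are not given.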

Additional observations from a re-analysis of the deposited data

Results flagged for a closer look

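Single libraries stood apart from the other 3 of their group in 17 of the 308 groups of member and date (by Dixon's 95% critical value), where chance gives about 1 in 20 groups. In Bac Kan these were HEME2 MANES_07G138000 at 5.23 on 15 August and 1.79 on 30 October, HEME2 MANES_10G005300 at 162.0 on 31 May, and CHLI1 at 206.3 on 26 July and 146.1 on 5 October. CHLD stood apart at 22.8 on 29 June and 17.5 on 5 October, GUN4 MANES_11G120400 at 177.5 on 30 October, DVR at 250.0 on 31 May and PORA MANES_15G085400 at 12.75 on 15 August. PAO did so at 89.2 on 29 June, SGR1 at 100.8 on 5 October, NYC1 MANES_16G115400 at 132.5 on 5 October and RCCR at 27.5 on 15 August. In Hanoi they were LIN2 at 22.4 on 24 May, SGR1 at 9.65 on 7 August and NYC1 MANES_16G115400 at 109.8 on 10 October.

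The site difference differed between the 4 date pairs for 21 members by limma's F test, adjusted over all genes. Among early steps the adjusted p-values were 0.000389 and 2.57e-06 for HEMA1 MANES_05G187000 and MANES_10G092000, 0.000141 and 0.00118 for HEMB1 MANES_02G164600 and MANES_18G078500, and 2.93e-06 for HEME2 MANES_10G005300. In the magnesium branch they were 1.19e-05 for CHLH, 0.00253 for CHLI1, 8.93e-07 for GUN4 MANES_11G120400, 1.32e-09 for CHLM, 0.000298 for CRD1 and 0.00347 for DVR. In the late steps they were 0.000657 and 1.40e-05 for PORA MANES_03G113300 and MANES_15G085400, 9.15e-05 for PORC, 0.000788 for CAO MANES_02G163700 and 2.75e-10 for CHLG. Among breakdown genes they were 3.85e-07 for PAO, 3.22e-05 for SGR1, 1.37e-08 and 6.39e-06 for NYC1 MANES_03G021500 and MANES_16G115400, and 0.0366 for RCCR. The RCCR call was lost without any 1 of 7 libraries and when only the groups compared were fitted (over all alternatives 0.00491 to 0.111).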

How the results depend on the processing

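Of 182 calls of members over the 11 comparisons, 135 were kept in every alternative run for them. Leaving out date pairs, an alternative added after seeing the data, changed 2 signs: the mean difference of GUN4 MANES_11G120400 went from 0.35 to -0.15 without the late May pair (limma adjusted p = 0.471), and that of the regulator EIN3 MANES_04G052000 from -0.16 to 0.00878 without the October pair (limma adjusted p = 0.944). The date means as samples left 0 members called higher and 0 lower in the mean of the pairs (12 and 7 otherwise), with 0 of all genes called and 1908 at an unadjusted p under 0.05. Without the October pair 3 members were called lower in the mean. With only the groups compared, July had 1 member called higher and 0 lower, and with median-ratio scaling 4 lower. Leaving out single libraries gave, for members called higher, 13 to 15 in late May, 1 to 3 in July, 7 to 10 in August, 7 to 8 in October, 12 to 13 in the mean and 2 to 4 for October minus late May. It gave, for members called lower, 1 to 2 in late May, 0 to 3 in July, 4 to 5 in August, 6 to 11 in October, 5 to 7 in the mean and 10 to 12 for October minus late May. The last against the first date gave 2 to 3 higher and 14 to 15 lower in Bac Kan, and in Hanoi 9 to 10 higher and 4 to 5 lower. The F tests gave 20 to 22 between pairs, 22 to 24 over the Bac Kan dates and 19 to 21 over those of Hanoi. No paired analysis was possible because the columns carry no replicate number. The cause of the lost calls was not tested. Absolute depth is unknown, which limits the members at low levels.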
